A study of Mus musculus with 6 samples.

Results

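Actin filaments and the adhesion sites that anchor them were followed through 34 genes of the fundic gastric mucosa, in mice with and without an intact Lasp1 gene. The genes were chosen by name: actins and proteins that bind actin monomers, the Arp2/3 branching machinery, severing and capping proteins, non-muscle myosin and tropomyosins, filament cross-linkers, LIM-domain regulators and adhesion-site proteins. That choice was made with earlier results of these data known. Of the 34 genes, 32 had at least 1 probe (73 of the 45281 probes on the array), and Actg1 and Arpc3 had no probe under those names in the annotation used here. Each gene is given by its brightest probe over the 6 arrays, without regard to genotype. After a filter on dim probes (mean log2 level above that of the median probe) 31 genes remained among 22640 tested probes. The gene dropped was Tln1, which encodes talin, the link from integrins to actin; its probe read 849 to 989 and stayed below the brightest Y-linked probe of its own array on every array. Background, taken from that probe because the Y-linked probes were dim on every array, lay at 1020 to 1212, and 29 of the 32 genes were above it on all 6 arrays.

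The samples were fundic gastric mucosae of C57Bl/6Ncr mice aged 3 months, 3 labelled wild type and 3 labelled Lasp1 knockout, with total RNA from each measured on 1 Illumina bead array. The labels give no allele, sex or count of animals per sample, so the spread behind each p-value is that between these samples and may be technical. Values are the authors' linear intensities, scaled to a median of 1000 on each array. The labelled tissue carried its defining transcripts: Atp4a, the catalytic subunit of the gastric proton pump, read 438485 to 539091 over the 6 arrays. The question put by the comparison is how loss of Lasp1, whose product sits on cortical actin, alters mRNA in this tissue.

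Actin polymerises from monomers held by profilin and the beta-thymosins, and cofilin returns subunits from old filaments to the monomer pool. The Arp2/3 complex, switched on by the WASP and WAVE families, starts branches, while tropomyosins, myosin II, filamin and the alpha-actinins turn filaments into contractile and cross-linked arrays. Vinculin, talin, paxillin and integrin-linked kinase couple these arrays to the matrix. In the parietal cell, actin-rich microvilli line the canaliculi through which acid is secreted.

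Lasp1 itself, the targeted gene, was measured at its brightest probe as 270957, 275068 and 177315 in wild type (replicates 1 to 3, the order used throughout) and 88521, 111002 and 89823 in knockout. The groups did not overlap, but the difference did not pass over the whole array (log2 -1.30, SE 0.21, limma unadjusted p = 0.000412, adjusted p = 0.994), and signal remained in knockout. A further Lasp1 probe differed by -1.59 (SE 0.34), also without overlap. The dimmest, near background, differed by -0.21 (SE 0.19) with overlap. The sources used here do not say whether these probes lie in the deleted part, which limits them as a check of the labels. The arrays also differed apart from genotype. Wild type replicate 3 and, at lower levels, knockout replicate 3 carried pancreatic acinar transcripts (Cpa1, a digestive carboxypeptidase, 814, 821 and 449183 in wild type and 993, 896 and 6865 in knockout). Wild type replicate 2 and knockout replicate 1 carried squamous ones (Lor, loricrin, 10048, 274920 and 1759 in wild type and 399114, 3355 and 2027 in knockout). The titles also number the arrays: wild type 2, 3 and 5 and knockout 1, 4 and 6 are the numbers of replicates 1 to 3, and their meaning is not stated.

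No actin or adhesion gene passed the test between genotypes. By limma over all 22640 probes, 0 of the 31 tested genes had an adjusted p under 0.05 (0.994 to 0.999), against 0.00883% of all tested probes. At an unadjusted p under 0.05 there was 1, Csrp1 (3.23% of the 31, against 1.73% of all tested probes and 1.63% in its direction, higher in knockout). Genotype groups did not overlap for 2 genes, Csrp1 and Myl12a (6.45% of the 31, against 7.19% of all tested probes in either direction, 6.17% in the higher and 1.02% in the lower direction), so these shares were near the background. Fold changes ran from 0.871 for Cap1 to 1.51 for Pfn1. Most of the genes nevertheless leaned the same way. Mean levels were higher in knockout mucosa for 29 of the 31 genes (93.5%), as they were for 76.9% of all tested probes, and the median log2 difference was 0.23 against 0.10 for all tested probes. The 31 genes are given by their brightest probes, while the tested probes reach down to a geometric mean of 991. The sets compared here and below are thus unlike in brightness, and folds of dim probes are understated. The part of brightness in these gaps was not tested.

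The lean was smaller without 1 array. Wild type replicate 3 was the lowest of the 6 arrays for 29 of the 31 genes (93.5%), as for 64.9% of all tested probes. It lay a median of -0.71 log2 from the other wild type arrays for the actin and adhesion genes and -0.32 for all tested probes. Without it, the median difference of the 31 genes was 0.09, with 21 higher in knockout, against -0.004 and 48.9% for all tested probes. Quantile normalization, which gives every array the same distribution, left a median of 0.12 with 27 higher, against 51.2% higher among the same 22640 probes. Within the arrays numbered 4 to 6, where wild type replicate 3 is the only wild type array, all 31 genes were higher in knockout (median 0.68, against 0.29 and 84.8% of all tested probes). Within those numbered 1 to 3, where knockout replicate 1 is the only knockout array, 22 were (median 0.06, against 0.04 and 59.2%). The part of the pancreatic transcripts on wild type replicate 3 in this result was not tested. In tissue samples, fewer cells of a type and less RNA per cell cannot be told apart.

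**Figure D1:**
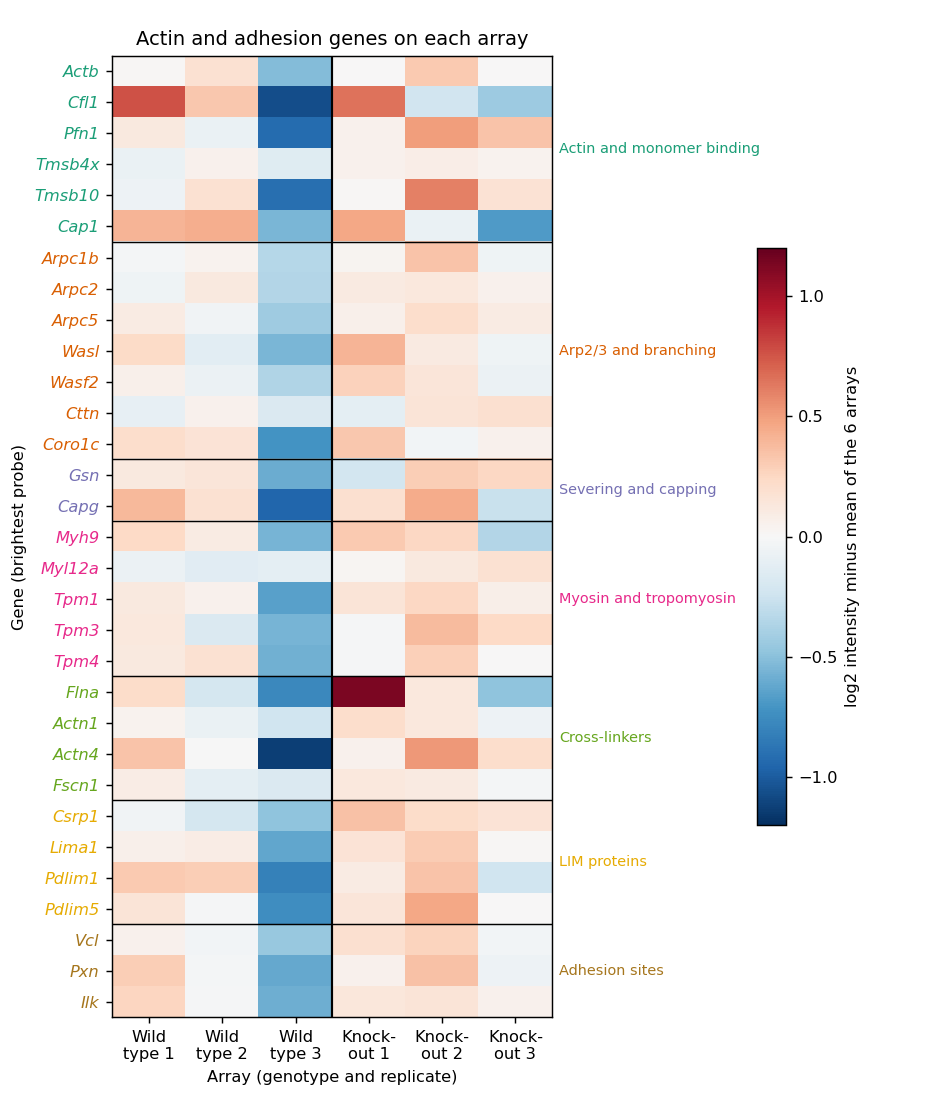
Log2 intensity of the 31 tested actin and adhesion genes minus each gene's mean over the 6 arrays, with arrays in columns and genes in rows grouped by role; red is above and blue below the gene's mean. The column of wild type replicate 3 is the lowest for 29 of the 31 genes, and Cfl1 and Cap1 stand out by a different order of the arrays.

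**Figure D2:**
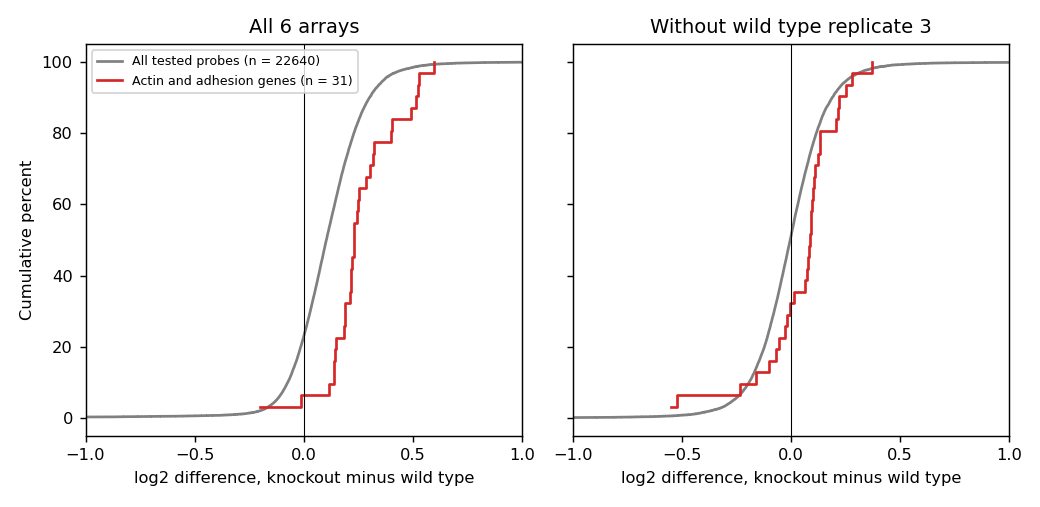
Cumulative distribution of the log2 difference between genotypes for the 31 actin and adhesion genes (red) and all 22640 tested probes (grey), over all 6 arrays on the left and without wild type replicate 3 on the right; the axis is cut at 1 in each direction. The medians are 0.23 and 0.10 on the left and 0.09 and -0.004 on the right.

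Many actin genes are targets of serum response factor, which binds the CArG box and works with cofactors that actin monomers hold out of the nucleus. The promoter windows below, from 250 bases before to 50 after the start of transcription, are RefSeq sequences of build GRCm38.p6. They are shown because Vcl and Lima1 are the tested genes with a CArG box in that window, and because Pfn1 and Myl12a are among the genes of smallest p and have a single window. Capitals mark a CArG box or an MCAT element (CATTCC, the site of TEAD factors) on either strand. The windows are chr14:20929148-20929447 (plus strand) for Vcl, chr15:99820100-99820399 (minus) for Lima1, chr11:70654601-70654900 (minus) for Pfn1 and chr17:71002484-71002783 (minus) for Myl12a.
Vcl: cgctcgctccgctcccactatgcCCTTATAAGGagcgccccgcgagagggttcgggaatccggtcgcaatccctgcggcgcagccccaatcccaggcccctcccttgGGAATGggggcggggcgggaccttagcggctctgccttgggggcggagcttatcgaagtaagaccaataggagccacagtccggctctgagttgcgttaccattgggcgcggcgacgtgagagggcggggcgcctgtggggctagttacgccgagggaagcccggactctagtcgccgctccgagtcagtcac
Lima1: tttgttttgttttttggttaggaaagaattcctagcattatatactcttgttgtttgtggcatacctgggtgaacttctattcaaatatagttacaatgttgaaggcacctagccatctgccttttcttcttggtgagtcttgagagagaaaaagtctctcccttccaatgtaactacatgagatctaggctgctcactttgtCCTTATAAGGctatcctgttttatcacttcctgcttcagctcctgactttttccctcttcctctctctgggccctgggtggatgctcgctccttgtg
Pfn1: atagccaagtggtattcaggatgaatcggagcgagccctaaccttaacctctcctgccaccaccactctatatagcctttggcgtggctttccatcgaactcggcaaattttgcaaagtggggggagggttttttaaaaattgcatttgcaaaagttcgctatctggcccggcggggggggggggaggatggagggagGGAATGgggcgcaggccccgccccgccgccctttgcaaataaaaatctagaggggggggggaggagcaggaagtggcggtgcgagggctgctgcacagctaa
Myl12a: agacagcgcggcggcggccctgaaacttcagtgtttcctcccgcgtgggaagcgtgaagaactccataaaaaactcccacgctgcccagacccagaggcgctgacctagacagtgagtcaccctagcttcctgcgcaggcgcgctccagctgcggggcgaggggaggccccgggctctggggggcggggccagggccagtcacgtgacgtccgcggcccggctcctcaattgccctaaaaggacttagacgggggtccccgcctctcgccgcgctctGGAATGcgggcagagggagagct
The CArG box has the same letters, CCTTATAAGG, in both genes and begins at -227 in Vcl and -47 in Lima1, counted from the start. Of the 34 genes, 31 matched a window in the table, Actb, Cttn and Pxn being the others. A CArG box was found in 3 of the 31 (9.68%: Actg1, Lima1 and Vcl), against 1.81% of all 27025 genes with a window and 1.76% of the 17491 protein-coding ones. An MCAT element was found in 7 of the 31 (22.6%, against 16.6% of all genes) and a GC box (GGGCGG, either strand) in 26 (83.9%, against 38.2% of all and 49.2% of protein-coding genes). No matches of different motifs overlapped in the windows of these genes. A match describes the letters only and does not show binding.

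Among actin and the monomer-binding proteins, 4 of 6 tested genes were higher in knockout, with a median log2 difference of 0.17. Actb, beta-actin itself, read 207220, 232262 and 143000 in wild type and 205616, 255551 and 205808 in knockout. Wild type replicate 3 was the low value and the groups overlapped (log2 0.22, SE 0.21), and without that array the difference was 0.01. All 5 tested Actb probes had a positive difference, from 0.16 to 0.61. Pfn1, profilin, which hands monomers to growing filaments, read 36181, 31661 and 17603 in wild type and 34575, 47230 and 42509 in knockout. Knockout replicates 2 and 3 lay above every wild type array but knockout replicate 1 did not (log2 0.59, SE 0.28, limma adjusted p = 0.994, exact two-sided permutation p = 0.2). Without wild type replicate 3 the Pfn1 difference was 0.28.

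The beta-thymosins sequester actin monomers. Tmsb10 read 57974, 68642 and 32366 in wild type and 61137, 92014 and 68195 in knockout. The groups overlapped (log2 0.52, SE 0.30), with wild type replicate 3 again the lowest, and without it the difference was 0.20. Another Tmsb10 probe differed by 0.61 and the dimmest by 0.03. Tmsb4x varied far less, reading 409484, 446267 and 391620 in wild type and 446787, 454876 and 445840 in knockout (log2 0.11, SE 0.11), with 1 wild type array inside the knockout range. The parietal marker Atp4b and the pancreatic marker Clps, brighter on every array, had similar SEs (0.12 and 0.13). The part of high brightness in this small spread was not tested. The Tmsb4x difference turned to -0.05 after cyclic loess normalization.

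Cfl1 and Cap1 were the tested genes with a lower mean in knockout, and they were singled out after their values were seen. Cfl1, cofilin, read 5998, 4415 and 1684 in wild type and 5529, 3004 and 2615 in knockout (log2 -0.01, SE 0.50). Cap1, a cyclase-associated protein that recycles cofilin-bound monomers, read 6817, 6969 and 3520 in wild type and 7099, 4854 and 3208 in knockout (log2 -0.20, SE 0.37). For both, the arrays numbered 1 to 3 in their titles were all above those numbered 4 to 6, and genotypes overlapped. With genotype in the model, Cfl1 was lower on the arrays numbered 4 to 6 by limma (log2 -1.30, SE 0.20, adjusted p = 0.0487), and Cap1 missed the threshold (log2 -0.91, SE 0.18, adjusted p = 0.0582). That was 1 of 31 genes (3.23%) against 0.724% of all tested probes. Coro1c, a coronin of branched networks, was split in the same way (log2 -0.61, adjusted p = 0.0772). In all, 3 of the 31 genes (9.68%) were lower on the arrays numbered 4 to 6 without overlap, against 19.3% of all tested probes, and none was higher, against 3.54%. By the fit 29 of the 31 were lower on those arrays, as were 76.9% of all tested probes, with medians of -0.30 and -0.18 log2. Within the arrays numbered 1 to 3 the genotype difference of Cfl1 was 0.10, and within those numbered 4 to 6 it was 0.73; for Cap1 these were 0.04 and 0.17. With the title set as a block both were positive, 0.42 for Cfl1 and 0.10 for Cap1 (limma adjusted p = 0.399 and 0.758), so their lower means in knockout were not seen within the sets. Without knockout replicate 1 and wild type replicate 3 together the genotypes and the title sets cannot be told apart, and Cfl1 differed by -0.88 (limma adjusted p = 0.164).

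**Figure D3:**
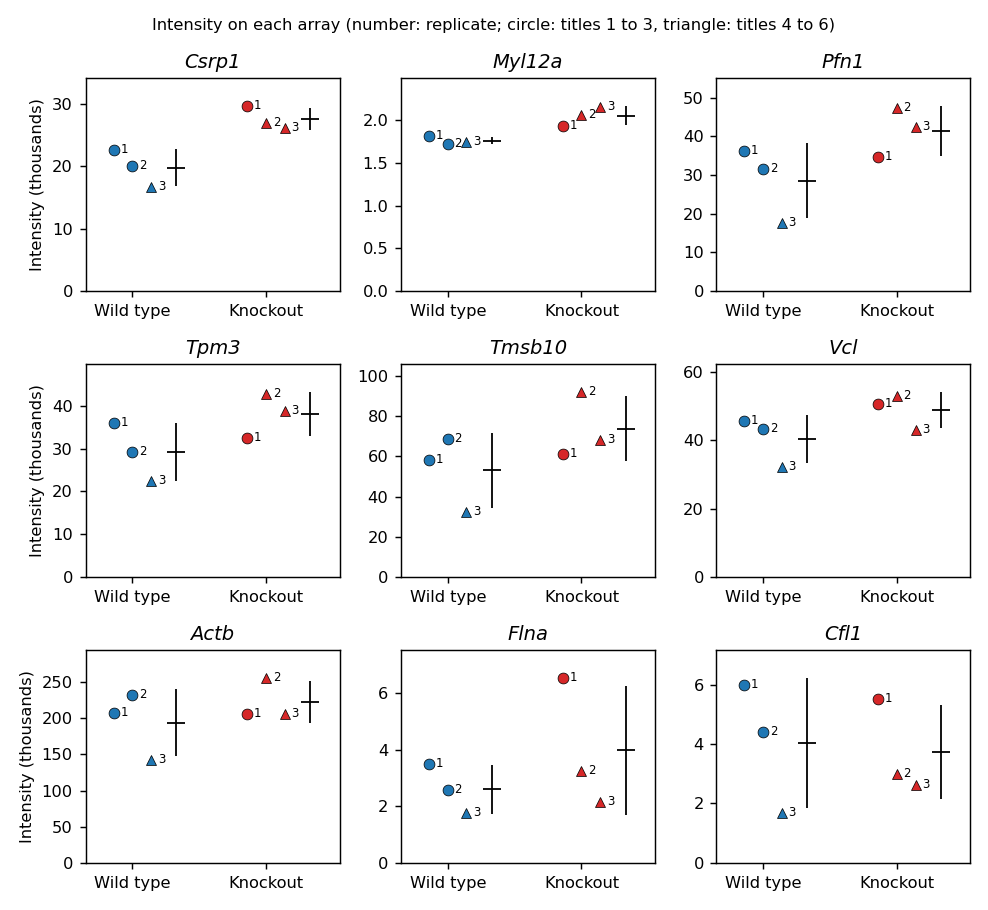
Intensity, in units of 1000, of 9 actin and adhesion genes on each array, wild type in blue and knockout in red, with the replicate number beside each point; circles are arrays numbered 1 to 3 in their titles and triangles those numbered 4 to 6, and the horizontal mark with its bar is the mean with SD of 3 arrays. Groups are separate for Csrp1 and Myl12a, and for Cfl1 the circles lie above the triangles.

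All 7 tested genes of the Arp2/3 machinery were higher in knockout on average, by 0.15 to 0.30 log2, with a median of 0.23. Arpc5, the smallest subunit of the complex, read 188359, 170739 and 131062 in wild type and 183547, 203276 and 188852 in knockout. Knockout replicate 1 lay inside the wild type range (log2 0.25, SE 0.16, limma adjusted p = 0.994). The other Arpc5 probes differed by 0.33 and, without overlap, 0.18, and without wild type replicate 3 the brightest differed by 0.10. The subunits Arpc1b (log2 0.21, SE 0.17) and Arpc2 (0.19, SE 0.15) differed by similar amounts, and their groups overlapped. Of the activators, Wasl, the N-WASP protein, differed by 0.30 (SE 0.23) and Wasf2, a WAVE protein, by 0.24 (SE 0.16), both highest on knockout replicate 1. Coro1c differed by 0.23 (SE 0.26) and by -0.07 without wild type replicate 3. Cttn, cortactin, which stabilises branches, was close to background at 1152 to 1477 and differed by 0.15 (SE 0.14), and its other tested probes by -0.001 to 0.20. Both proteins that sever or cap filaments were read low by wild type replicate 3. Gsn, gelsolin, read 2130, 2174 and 1300 in wild type and 1682, 2401 and 2335 in knockout (log2 0.22, SE 0.25), with knockout replicate 1 inside the wild type range. Capg, which caps without severing, read 17553, 15162 and 6918 in wild type and 15243, 18262 and 11138 in knockout (log2 0.25, SE 0.37). Without wild type replicate 3 both differences turned, to -0.03 for Gsn and -0.16 for Capg.

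Tropomyosins line the filament and set which myosins and severing proteins reach it. Tpm3 read 35980, 29257 and 22329 in wild type and 32574, 42803 and 38808 in knockout. Knockout replicate 1 lay below wild type replicate 1, so the groups overlapped (log2 0.40, SE 0.20, exact two-sided permutation p = 0.2), and without wild type replicate 3 the difference was 0.22. The other tested Tpm3 probes differed by 0.154 and 0.115, and by -0.149 and 0.016 without that array. Tpm1 read 241545, 231962 and 142399 in wild type and 249149, 265353 and 234726 in knockout (log2 0.32, SE 0.22), and its dimmest probe differed by -0.02. Without wild type replicate 3 the brightest Tpm1 probe differed by 0.08. Tpm4 differed by 0.19 (SE 0.22) and by -0.05 without that array.

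Non-muscle myosin II pulls on these filaments. Myl12a, one of its regulatory light chains, read 1812, 1726 and 1747 in wild type and 1935, 2063 and 2158 in knockout. All knockout arrays were above all wild type arrays, and wild type replicate 3 was not the lowest (log2 0.22, SE 0.11, limma adjusted p = 0.994, exact two-sided permutation p = 0.1, the smallest that 3 against 3 arrays can give). Without wild type replicate 3 the Myl12a difference was 0.21, within the arrays numbered 1 to 3 it was 0.13 and within those numbered 4 to 6 it was 0.27. After quantile normalization it was 0.10 and its groups overlapped. Myh9, the heavy chain, read 39579, 35891 and 22775 in wild type and 41706, 39657 and 26204 in knockout. Its groups overlapped (log2 0.14, SE 0.27), and the difference was -0.10 without wild type replicate 3 and -0.04 after quantile normalization.

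Cross-linkers and LIM proteins had medians of 0.35 and 0.36 log2 over all arrays. Without wild type replicate 3 these were 0.10 and 0.11, and without knockout replicate 1 they were 0.12 and 0.38, so the place of the cross-linkers among the role groups depended on single arrays. Flna, filamin A, which holds filaments at wide angles, read 3482, 2575 and 1748 in wild type and 6520, 3252 and 2140 in knockout. Only knockout replicate 1 lay above the wild type range (log2 0.51, SE 0.43, limma adjusted p = 0.994). Without that array the difference was 0.08, and without both it and wild type replicate 3, where genotype and title set coincide, it was -0.18. Flna differed by -1.04 log2 on the arrays numbered 4 to 6 against 1 to 3 (limma adjusted p = 0.0623), and with the title set as a block it differed between genotypes by 0.86 (limma adjusted p = 0.399). Actn4, an alpha-actinin, read 28791, 22598 and 10395 in wild type and 23433, 32592 and 26300 in knockout (log2 0.52, SE 0.37); it differed by 0.09 without wild type replicate 3. Actn1, the other alpha-actinin, differed by 0.18 (SE 0.14). Fscn1, fascin, which bundles filaments in protrusions, read 970 to 1194 and was above background on only 2 arrays.

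Csrp1, a double-LIM protein of actin bundles and of smooth muscle, had the smallest p of the 31 genes. It read 22580, 20068 and 16620 in wild type and 29643, 27015 and 26106 in knockout. Every knockout array was above every wild type array (log2 0.49, 1.41-fold, SE 0.15, unadjusted p = 0.0132 by limma, exact permutation p = 0.1). It did not pass over all probes (limma adjusted p = 0.994). Means were 19756 ± 2992 and 27588 ± 1837 (SD, n = 3 each). The groups also stayed apart after quantile normalization (0.31), as for 6.36% of all tested probes in either direction, while those of Myl12a did not. Csrp1 differed by 0.37 without wild type replicate 3, by 0.44 without knockout replicate 1, by 0.32 without both and by 0.58 with the title set as a block (limma adjusted p = 0.399). Within the arrays numbered 1 to 3 the difference was 0.48 and within those numbered 4 to 6 it was 0.68. Neither of its 2 RefSeq promoter windows held a CArG box or an MCAT element.

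The other LIM proteins had overlapping groups. Pdlim5, a PDZ-LIM adaptor on alpha-actinin, read 10002, 8921 and 5377 in wild type and 9949, 12406 and 9024 in knockout (log2 0.41, SE 0.26). Without wild type replicate 3 the difference was 0.13. The other tested Pdlim5 probe differed by 0.53 (SE 0.23, limma adjusted p = 0.994) and by 0.30 without that array. Its groups also overlapped, but not after quantile normalization, as for 6.36% of all tested probes in either direction. Lima1, also called EPLIN, which stabilises filaments and whose CArG box is shown above, differed by 0.32 (SE 0.22) and by 0.09 without that array. Pdlim1 differed by 0.14 (SE 0.33) and by -0.24 without it. At adhesion sites, Vcl, vinculin, which carries the other CArG box, read 45651, 43190 and 32243 in wild type and 50445, 53058 and 42989 in knockout. Knockout replicate 3 lay just below wild type replicate 2, so the groups overlapped (log2 0.28, SE 0.17), and without wild type replicate 3 the difference was 0.13. The scaffold Pxn, paxillin, differed by 0.23 (SE 0.25) and the kinase-like Ilk by 0.23 (SE 0.22), and without that array by -0.02 and -0.01.

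**Figure D4:**
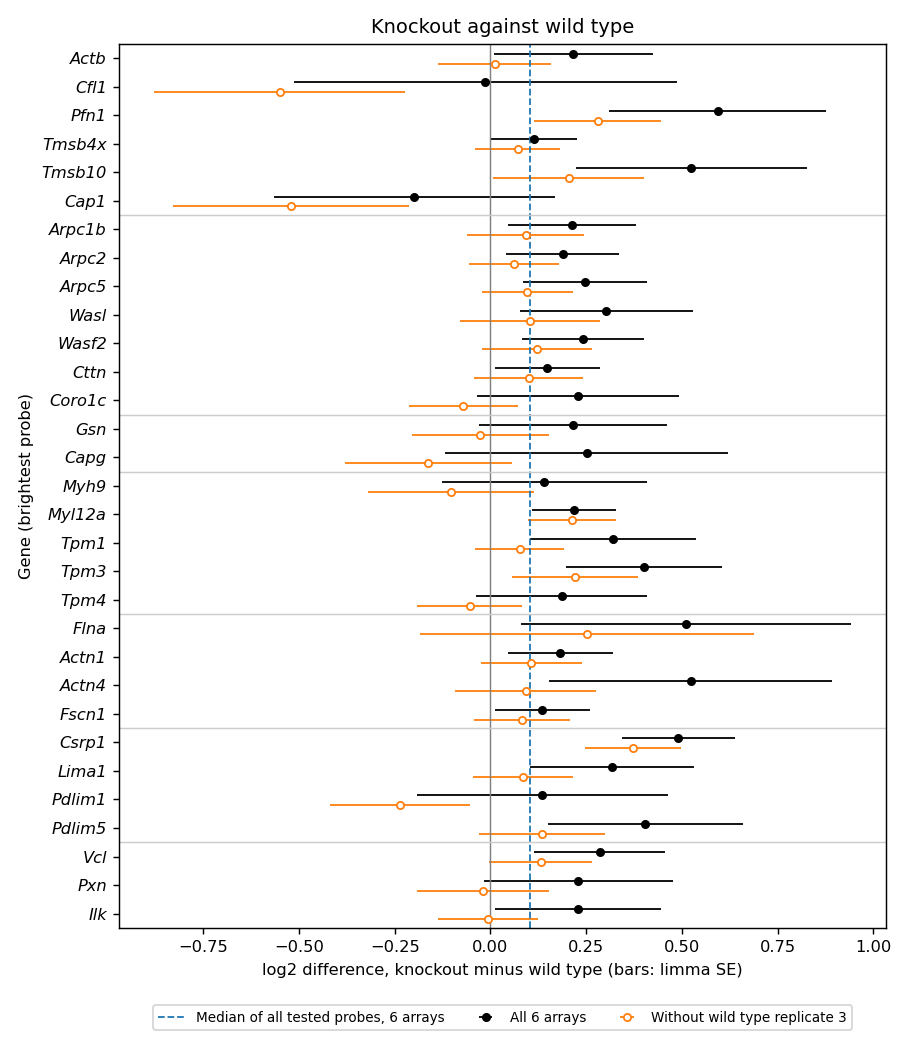
Log2 difference between genotypes of each tested actin and adhesion gene with its limma standard error, over all 6 arrays (black) and without wild type replicate 3 (open orange); the dashed line is the median of all tested probes at 0.10. Leaving out the array moves Pfn1 from 0.59 to 0.28 and Capg from 0.25 to -0.16, and Myl12a only from 0.22 to 0.21. Myl12a is far dimmer than these (1726 to 2158), and folds of dim probes are understated.

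Smooth muscle, which shares much of this machinery, was unequal between arrays. Knockout replicate 1 was the highest array for all 10 tested smooth muscle markers, of 12 listed. Myh11, the smooth muscle myosin heavy chain, read 5590, 3645 and 1806 in wild type and 23458, 3571 and 2330 in knockout. Acta2, smooth muscle actin, read 85098, 48411 and 26433 in wild type and 169728, 47962 and 35252 in knockout. The same array was highest for the defining markers Actg2, smooth muscle gamma-actin (27747 against at most 8345 elsewhere), Des, desmin (8686 against at most 1860), and Tagln, an actin-binding protein of contractile smooth muscle (2911 against at most 1212). Cnn1 and Synpo2 were too dim to test, Cnn1 at 960 to 1052. Summed over the 12 markers, intensity ran from 54890 on wild type replicate 3 to 141238 on wild type replicate 1, and from 72118 to 325089 in knockout.

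Among the actin and adhesion genes knockout replicate 1 did not stand out in this way. Knockout replicate 1 was the highest array for 9 of the 31 genes (29.0%), against 26.4% of all tested probes, and knockout replicate 2 for 18 (58.1%, against 21.4%). The largest excess of knockout replicate 1 over the other knockout arrays was that of Flna (1.31 log2), beside a median of 1.84 for the smooth muscle markers and 0.01 for the 31 genes. Csrp1 exceeded them by 0.16. Without knockout replicate 1 the median genotype difference of the smooth muscle markers was -0.14, and that of the 31 genes was 0.25. With the mean smooth muscle level as a covariate the 31 genes had a median of 0.16, with 28 higher and none called by limma. That level was 13.96 log2 on knockout replicate 1 and 11.54 to 12.50 on the others. The covariate fit thus cannot cleanly separate it from other traits of that array, such as its squamous transcripts. In that fit Flna differed by 0.10 (SE 0.17) and Csrp1 by 0.41 (SE 0.14). Wild type replicate 3 was the lowest array for 7 of the 10 smooth muscle markers too.

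By list medians, other cell types had other profiles over the arrays, but single markers differed from their lists. Wild type replicate 3 was below both other wild type arrays for 30 of the 31 genes (75.5% of all tested probes). The same held for 3 of 8 leukocyte, 4 of 9 fibroblast and endothelial and 4 of 7 parietal markers tested. Pdgfra, Pecam1, Laptm5 and Cdh5 lay -1.42, -1.19, -0.76 and -0.73 log2 from those arrays there, and Lum and Lyz2 0.93 and 0.37. The tested leukocyte markers, 8 of 10 listed, were higher in knockout for 7 (median 0.29; summed level 27338 to 37161 in wild type and 32178 to 44318 in knockout), and Ptprc, the common leukocyte antigen, was too dim to test at 825 to 1088. On wild type replicate 3 these markers sat -0.15 log2 from their mean over the arrays, against -0.56 for the 31 genes. The 9 fibroblast and endothelial markers differed by a median of 0.03 (summed level 65345 to 108190 in wild type and 70200 to 95721 in knockout), with Col1a1 at 2603 to 4705. The 7 parietal cell markers also differed by a median of 0.03 (summed level 1615831 to 1648330 and 1586353 to 1750929) and sat at -0.17 on wild type replicate 3. They were split there. Aqp4, Kcne2 and Slc26a7 lay -1.26, -0.82 and -0.74 log2 from the other wild type arrays. The brighter Atp4a, Clic6, Cblif and Atp4b, which make up most of the sum, lay at -0.22, -0.05, 0.13 and 0.19. Pancreatic acinar markers summed to 5763774 on wild type replicate 3, 1023734 on knockout replicate 3 and at most 688947 elsewhere. Of these sums, Clps alone gave 513831 to 635559 over the 6 arrays. Squamous markers summed to 666185 on wild type replicate 2, 1177919 on knockout replicate 1 and at most 35113 elsewhere. The part of squamous and leukocyte content in the differences of the actin genes was not tested. That of smooth muscle was examined only by the covariate fit above, which cannot cleanly separate it from other traits of knockout replicate 1.

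**Figure D5:**
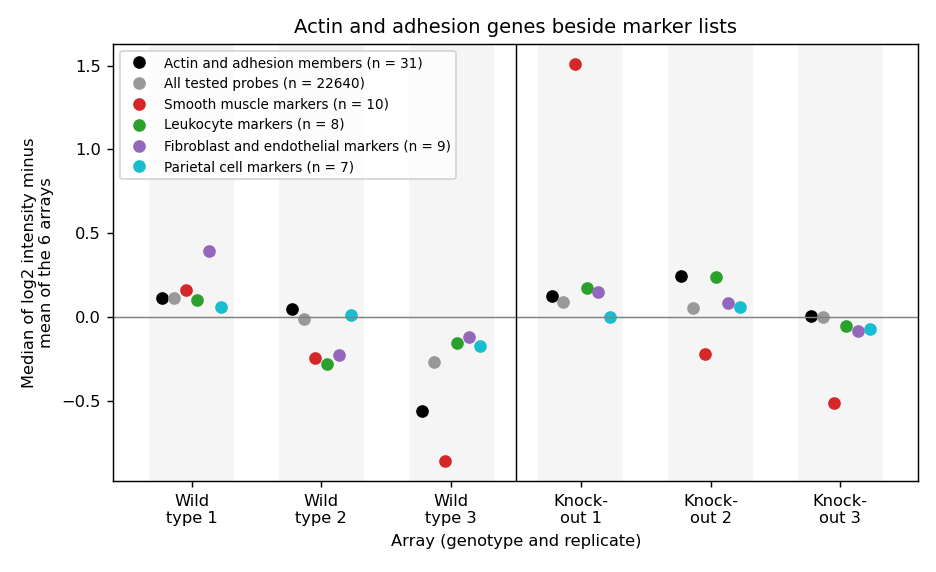
Median log2 intensity, relative to each gene's mean over the 6 arrays, of the 31 actin and adhesion genes, all tested probes and marker lists on each array. The actin and adhesion genes are at -0.56 on wild type replicate 3 and 0.24 on knockout replicate 2, while smooth muscle markers reach 1.51 on knockout replicate 1.

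A further list of 65 actin and adhesion genes, with other Arp2/3 and WAVE subunits, capping proteins, integrins and the kinases and phosphatases that regulate cofilin, held no call either. Of the 52 tested, 0 passed in either direction by limma, against 0.00883% of all tested probes. At an unadjusted p under 0.05 by limma there were 2, against 1.73% of all tested probes. Groups were separate for 4, all 4 higher in knockout, against 7.19% of all tested probes in either direction and 6.17% in the higher. The median difference was 0.22, with 51 higher (98.1%), against 0.10 and 76.9% for all tested probes. Without wild type replicate 3 it was 0.04, with 34 higher, against -0.004 and 48.9%. The genes of smallest p were Itgav, Limk1, Dstn and Myl6 (limma adjusted p = 0.994 each). Itgav, the integrin alpha V chain, read 2500, 2239 and 1958 in wild type and 2875, 3089 and 2546 in knockout (log2 0.35, SE 0.14), without overlap. Limk1, the LIM kinase that inactivates cofilin, read 1237, 1148 and 1338 in wild type and 1402, 1633 and 1536 in knockout (log2 0.30, SE 0.12), also without overlap and not lowest on wild type replicate 3. It was close to background, and wild type replicate 2 lay below the brightest Y-linked probe of that array (1189). After quantile normalization Limk1 differed by 0.215 and its groups overlapped. Dstn, destrin, a relative of cofilin, differed by 0.34 (SE 0.15), and Myl6, the essential light chain of myosin II, by 0.39 (SE 0.18), both with overlapping groups. Srf, serum response factor, read 9506, 7275 and 5227 in wild type and 11594, 8084 and 6785 in knockout (log2 0.27, SE 0.28), and its cofactor Mrtfa was too dim to test.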

How the data were processed

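Total RNA of 6 mucosal samples was labelled with biotin through the Ambion MessageAmp kit for Illumina arrays, per the labels' protocols. The authors deposited 1 linear probe intensity per array. Each column has a median of 1000, no value lies below 541.9 and the sorted columns differ, so the authors scaled each array to a common median, and neither background subtraction nor quantile normalization is visible. Folds of dim probes are therefore understated. The sources used here name no scanner, software or filter. In place of read depth, 35.8% to 48.5% of an array's probes lay above its brightest Y-linked probe. The number of arrays limits the precision.

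Probes were named from the platform annotation (34885 with 1 symbol, 18 with several, 10378 with none), with current symbols from GRCm38.p6 for 34807. Intensities were floored at 16 (none was lower) and log2 transformed, and probes brighter on average than the median probe were kept (geometric mean above 991). Genotypes were compared by limma 3.58.1 (lmFit, eBayes; R 4.3.3). P-values are two-sided, with Benjamini-Hochberg adjustment over the 22640 kept probes and a threshold of 0.05. All differences are knockout minus wild type. The fit was tested on simulated data. No list test was run. The members and lists were chosen with earlier results of these data known. Values on every array are given for the 8 genes of smallest p, genes with separate groups, 10 measured genes listed by name, Lasp1 and list markers (some as ranges); Actn4, Cfl1, Cap1 and Srf were added after their values were seen.

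Same-numbered replicates of the genotypes did not all deviate together (correlations of deviations from the group means 0.0445, -0.299 and 0.527 for replicates 1 to 3). Wild type replicate 2 and knockout replicate 1 had a correlation of 0.549. The numbers were therefore not taken as pairs. Alternatives were other scalings, backgrounds, filters, variance models, blocks, a smooth muscle covariate, averaging the probes of each gene, and leaving out arrays; 2 that combine quantile normalization with another choice were added after seeing the data, as was the comparison by title number. Plots: matplotlib 3.10.9, Python 3.11.15.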

Additional observations from a re-analysis of the deposited data

How the results depend on the processing

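Across 21 alternatives the 31 genes had a median difference of 0.045 to 0.366 (0.229 as reported), and 20 to 31 genes were higher in knockout. The lowest of these medians came from quantile normalization without wild type replicate 3 and the highest from leaving out wild type replicate 1. None of the 31 genes was called, except 4 with array weights (Csrp1, Pfn1, Myl12a and Tpm3, limma adjusted p = 0.0314, 0.0426, 0.04 and 0.0364). In that fit wild type replicate 2 weighs 38.8 and every other array 1.6 or less, and the estimate of the weights stopped before it converged, so these calls are not relied on. Over the array, 2 probes passed as reported, 1816 with array weights, 34 without knockout replicate 1 and wild type replicate 3 together (where genotype and title set cannot be told apart), 0 without wild type replicate 2 and knockout replicate 1 together, 0 with the replicate block, and 0 to 3 on leaving out 1 array. The replicate block left the median of the 31 genes at 0.229 and called 0 of them. The causes were not tested.

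Of the 15 genes whose values on every array were chosen by rule, 9 kept their direction under each of the 21 alternatives. The others turned as follows. With array weights, Actb was -0.007, Myh9 -0.051 and Capg -0.008. After cyclic loess Tmsb4x was -0.054 and Myh9 -0.044, and Myh9 was -0.042 after quantile normalization, with and without normexp, and -0.034 with the smooth muscle covariate. On leaving out 1 array, Myh9 ran from -0.102 to 0.352, Gsn from -0.026 to 0.38 and Capg from -0.162 to 0.51. Without wild type replicate 3, Myh9 was -0.102, Gsn -0.026 and Capg -0.162, and with quantile normalization as well Actb was -0.024, Myh9 -0.122, Gsn -0.01 and Capg -0.161. Without knockout replicate 1 and wild type replicate 3 together, Flna was -0.183, Myh9 -0.225 and Capg -0.194.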
